A study of Drosophila melanogaster with 12 samples.

Results

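Glutathione transferases and UDP-glycosyltransferases are the conjugating enzymes of the fly. The genes described here are those with a probe set of their own whose symbol names a cytosolic glutathione transferase of class Delta, Epsilon, Omega, Sigma, Theta or Zeta, or a numbered UDP-glycosyltransferase. They number 67 of the 10844 genes with a single symbol on the array, 34 of them glutathione transferases and 33 UDP-glycosyltransferases. The rule goes by gene names, but it was chosen with earlier results of these data known. Where a gene had several probe sets the one with the highest mean over the 12 arrays stood for it, as for GstO2, Ugt35B1 and Ugt305A1. RNA came from whole Drosophila melanogaster of unstated strain and sex. Larvae ate standard diet until early in their last instar and the same diet without yeast from then on, and adults were given yeast again 4 days after emergence. There was 1 array for each of hours 1 to 12 after that switch, and no array was repeated. Hour was therefore the only factor, and with it went the time of day, the age of the flies and the order of handling, which cannot be told apart from it. The flies kept without yeast that the labels also mention are not analysed here, so no value below separates the return of yeast from the passing of hours. The labels do not give the number of flies in a sample, and p-values measure only the spread of single arrays around the fitted course.

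A glutathione transferase joins the tripeptide glutathione to reactive, often electrophilic compounds, which makes them soluble and easier to export. The Delta and Epsilon classes belong to arthropods, expanded by tandem duplication, and are known for insecticide and oxidative stress responses. The Omega, Sigma, Theta and Zeta classes are shared with vertebrates. A UDP-glycosyltransferase sits in the endoplasmic reticulum membrane and moves a sugar, in insects mainly glucose, from a UDP-sugar onto small lipophilic molecules such as plant compounds, pigments and odorants. Gut, fat body, Malpighian tubule and antenna are known sites of both families. The transcription factor CncC with its partner Maf-S, held in check by Keap1, is known to switch on many of these genes, GstD1 among them.

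The glutathione transferases were the more often measurable family. Values at or under an intensity of 57.2, the 20th percentile of the whole table, were treated as a floor, and a gene was tested where at least 3 arrays exceeded it. This kept 32 of 34 glutathione transferases and 20 of 33 UDP-glycosyltransferases. GstD4, GstD7 and 12 of the 13 UDP-glycosyltransferases left out did not exceed the floor on any array, and the other one, Ugt36E1, did so on 1. As a further gauge, control probe sets with no fly target read at most between 98.1 and 135.2, depending on the array. The highest of these readings was at hour 12, against at most 114.2 at the other hours. On every array 19 glutathione transferases and 5 UDP-glycosyltransferases read above the brightest of these controls, while 7 and 22 did so on none. The 5 UDP-glycosyltransferases were Ugt35B1, Ugt36D1, Ugt37A1, Ugt49C1 and Ugt317A1. What a probe set reads near those controls may be mostly background, and probe sequences, which would show matches to near-identical neighbours, were not used here.

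Some properties of the arrays touch all values below. Transcripts of the male accessory gland were present at hours 2, 3, 5, 9 and 10, where Acp95EF, a seminal fluid protein gene, read between 269.5 and 552.0 against 38.0 to 44.0 on the other 7 arrays. For actin, a control of RNA integrity, the 3' probe set exceeded the 5' one by 1.13 log2 at hour 1 and 0.69 at hour 12. Among marker lists, 6 of 7 adult fat body genes and 3 of 6 midgut genes rose, the 3 eye genes with a probe set fell, and of 3 tested Malpighian tubule genes 1 fell and 0 rose. The summed intensity of the fat body markers lay between 3368.3 and 6113.1 in hours 1 to 4 and between 9680.3 and 18197.2 in hours 9 to 12. For the midgut markers the ranges overlapped, at 10827.7 to 13981.6 and 12419.2 to 13690.1, as they did for the tubule markers, at 732.0 to 882.4 and 721.6 to 865.2. Among the 7 antenna markers tested 1 fell and 0 rose, and of 4 accessory gland and 9 testis genes 0 rose and 0 fell. Over all tested genes 9.57% rose and 4.87% fell. The tubule-defining gene Uro had no probe set of its own in the table. In RNA of whole flies, a change in the number of cells of a type and a change in RNA per cell cannot be told apart. The part of fat body, gut or RNA quality in the changes below was not tested, beyond the fits with covariates that are given.

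Over the 12 hours 10 glutathione transferase genes rose and 0 fell, and 2 UDP-glycosyltransferase genes rose and 1 fell. The largest rises were those of GstE9 and GstE6, each to more than 2 times the starting level along the fitted line, and the fall was that of Ugt35B1. Each change below is the limma slope multiplied out to the whole span, hour 1 to hour 12, on the log2 scale, with Benjamini-Hochberg adjustment over 9224 tested genes and a threshold of 0.05. Of the tested glutathione transferases, 31.2% rose, where 9.57% of all tested genes did, and 0 of 32 fell, where 4.87% of all tested genes did. At an unadjusted p under 0.05, limma found 0 of 32 glutathione transferases lower and 13 higher (40.6%), where 8.9% of all tested genes were lower and 16.6% higher. Among the UDP-glycosyltransferases 10.0% rose and 5.0% fell, shares near those of all genes. Fitted changes were above 0 for 27 of 32 glutathione transferases and 14 of 20 UDP-glycosyltransferases, with medians of 0.15 and 0.06, and for 5129 of all 9224 genes, with a median of 0.02. These counts and medians are descriptions, and the difference between the families was not tested.

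**Figure D1:**
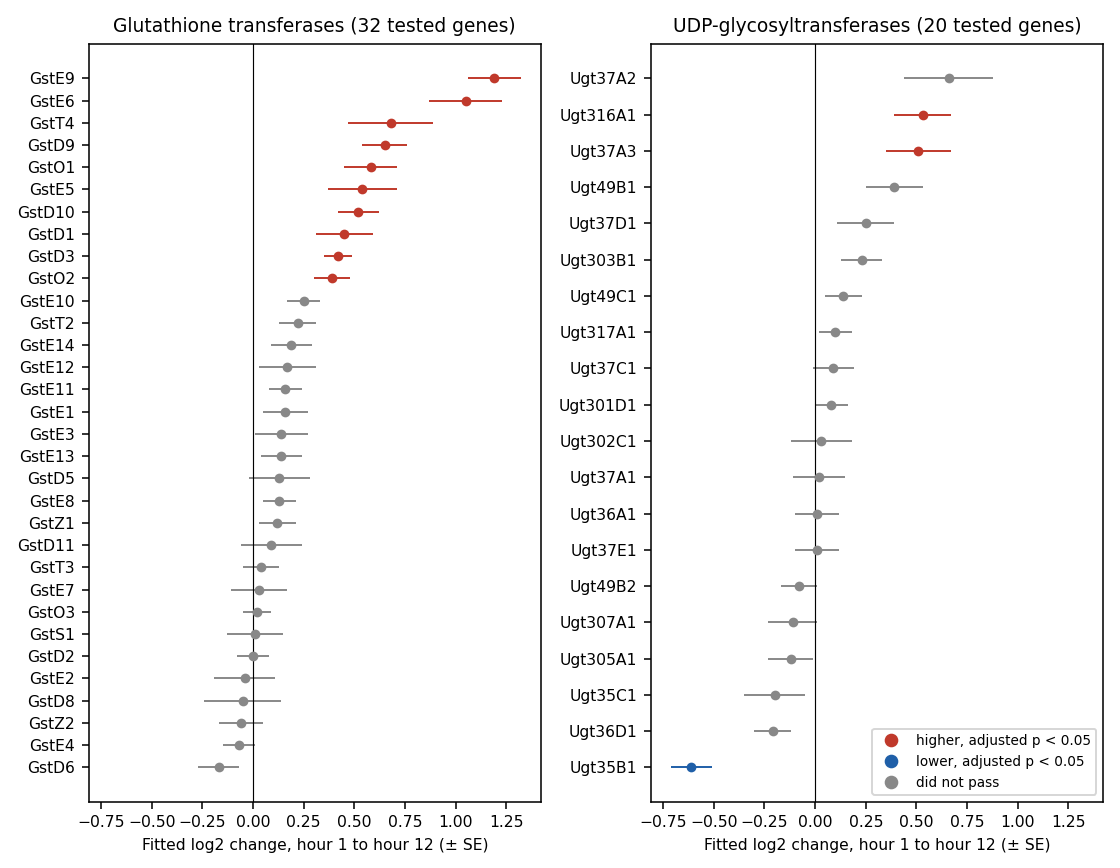
Fitted log2 change from hour 1 to hour 12 (horizontal axis, ± SE, 12 arrays) of the 32 tested glutathione transferase genes (left) and the 20 tested UDP-glycosyltransferase genes (right), sorted by size. Red points mark the 10 and 2 genes that rose and the blue point Ugt35B1, which fell; grey points did not pass.

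**Figure D2:**
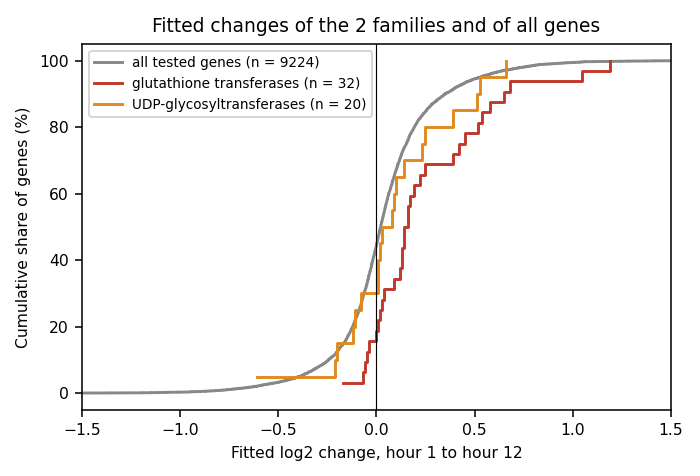
Cumulative share of genes (vertical axis, %) by fitted log2 change from hour 1 to hour 12 (horizontal axis, cut at both ends) for all 9224 tested genes, the 32 glutathione transferases and the 20 UDP-glycosyltransferases. The glutathione transferase curve lies to the right of the other curves over most of its course, with its median at 0.15.

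Of the 14 Epsilon genes, 3 rose and 11 did not pass, with a median fitted change of 0.16. GstE9 read 158.8, 127.3, 151.2 and 170.7 in hours 1 to 4, then 185.8, 219.5, 224.8 and 253.0 in hours 5 to 8, and 241.3, 229.5, 323.5 and 312.8 in hours 9 to 12. Each of its last 8 arrays was above each of its first 4. GstE9 rose by 1.19 ± 0.13 (SE, n = 12 arrays; limma adjusted p = 0.000122), a fold of 2.28 along the fitted line. GstE6, an Epsilon enzyme with broad conjugating activity, read 271.1, 375.9, 427.8 and 396.7, then 532.0, 568.3, 592.3 and 585.7, and finally 568.6, 470.2, 701.3 and 707.7. Its lowest array was hour 1 and its highest hour 12, and here too no later array reached down to the first 4. GstE6 rose by 1.05 ± 0.18 (limma adjusted p = 0.00211), a fold of 2.07. GstE5 was dimmer and under the floor in hours 1 and 2, at 56.1 and 56.5, with a median of 79.1 and its highest value, 105.1, at hour 8. That gene exceeded the brightest control without a fly target on 0 of 12 arrays. It was the member nearest to the threshold among those that passed, at 0.54 ± 0.17 (limma adjusted p = 0.0464), and its call was lost when any hour other than 8 or 10 was left out, at adjusted p of 0.0504 to 0.18 and changes from 0.44 to 0.64. Just outside the threshold lay GstE10, at 0.25 ± 0.08 (limma adjusted p = 0.0514), which passed without hour 10, at a change of 0.29 (limma adjusted p = 0.0251). GstE10 also passed with the floor at the 40th percentile, with no filter or with the mean over probe sets (limma adjusted p from 0.0406 to 0.0454).

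Other Epsilon genes with known roles did not pass. GstE1, which conjugates the lipid peroxidation product 4-hydroxynonenal, had values from 175.5 to 238.2 with a median of 200.1 and a fitted change of 0.16 ± 0.11 (limma adjusted p = 0.435). GstE14, known as noppera-bo and needed for ecdysteroid synthesis, had values from 131.9 to 181.0 with a median of 148.7 and a fitted change of 0.19 ± 0.10 (limma adjusted p = 0.281). GstE12, the member of its class with the highest mean intensity, ranged from 495.8 at hour 10 to 740.1 at hour 8, with a fitted change of 0.17 ± 0.14 (limma adjusted p = 0.529). Some neighbouring hours differed by more than that fitted change, as hours 9, 10 and 11 did, at 659.7, 495.8 and 679.1. The Epsilon genes also include GstE3, at 0.14 ± 0.13, which passed once the 5 arrays with male transcripts were left out, at a change of 0.39 (limma adjusted p = 0.0281).

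Of the 11 Delta genes 9 could be tested, of which 4 rose and 5 did not pass, with a median fitted change of 0.13. GstD1, which detoxifies DDT and is widely used as a reporter of oxidative stress signalling, stood at 1506 at hour 1, 2171 at hour 2 and 2446 at hour 3. After that it kept between 2112 at hour 4 and 2816 at hour 12, so that hour 1 lay apart below all other arrays. GstD1 rose by 0.45 ± 0.14 (limma adjusted p = 0.0425), but without hour 1 the change was 0.24 (limma adjusted p = 0.201). Its call was also lost without hour 2, 4, 6, 7, 10 or 11, at changes from 0.44 to 0.51 (limma adjusted p from 0.0512 to 0.0623), and without hour 12, at 0.40 (limma adjusted p = 0.161). GstD9 climbed more evenly, with 121.8, 125.7, 143.9 and 128.7 in hours 1 to 4, 147.3, 145.5, 172.5 and 146.6 in hours 5 to 8, and 170.2, 150.0, 184.0 and 217.0 in hours 9 to 12. None of its last 4 arrays overlapped the first 4, and it rose by 0.65 ± 0.11 (limma adjusted p = 0.00214), a fold of 1.56. GstD10 ranged from 93.3 at hour 3 through a median of 119.1 to 147.2 at hour 9 and rose by 0.52 ± 0.10 (limma adjusted p = 0.00384). GstD3 ranged from 96.6 at hour 1 through a median of 116.2 to 135.2 at hour 12 and rose by 0.42 ± 0.07 (limma adjusted p = 0.00224). GstD10 and GstD3 exceeded the brightest control without a fly target on 9 and 8 of 12 arrays. GstD3, GstD9, GstD10, GstE6 and GstE9, and the Omega genes GstO1 and GstO2, kept their trend calls whichever single hour was left out.

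The remaining Delta genes did not pass. GstD2 varied only between 220.9 and 260.4 and had a fitted change of 0.00 ± 0.08 (limma adjusted p = 0.991). GstD8 read 642.5 at hour 9 and 498.7 at hour 10, against 356.5 to 467.9 at all other hours, and its fitted change was -0.05 ± 0.19 (limma adjusted p = 0.924). Its 2 brightest arrays both held male transcripts, while hours 2, 3 and 5, which held them too, read 429.9, 457.5 and 384.8. GstD6 had the lowest fitted change of the family, -0.17 ± 0.10 (limma adjusted p = 0.336), GstD5 had 0.13 ± 0.15 and GstD11 0.09 ± 0.15.

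**Figure D3:**
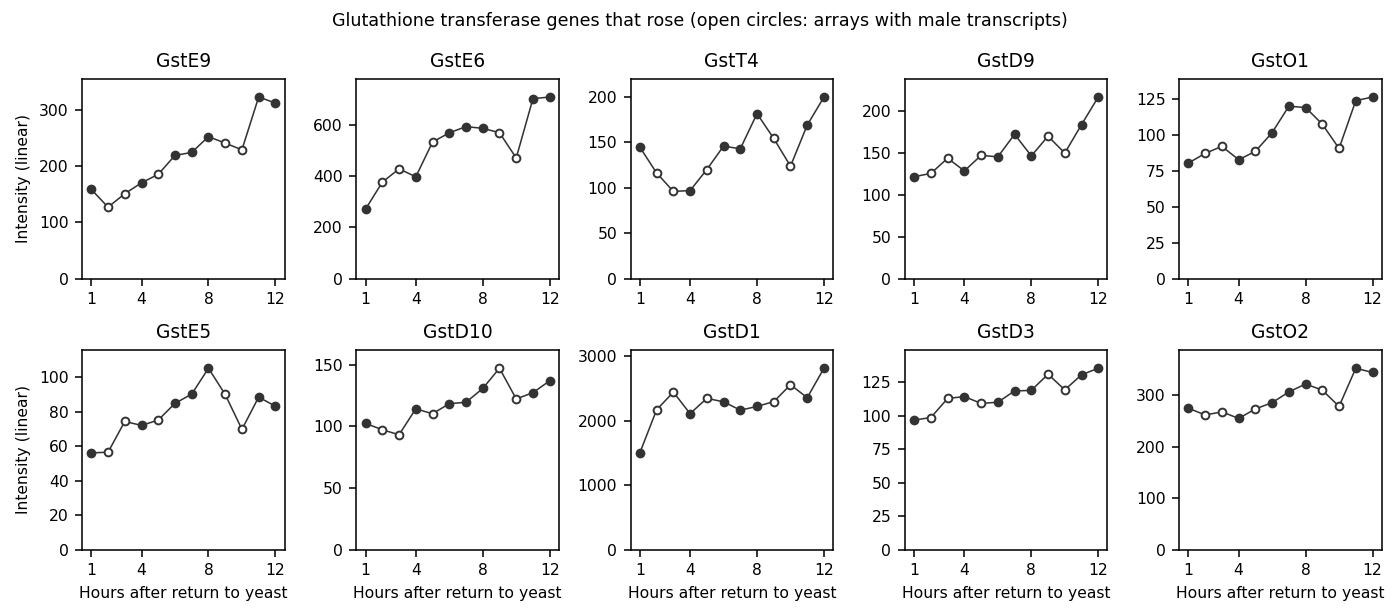
Intensity on a linear scale (vertical axes, from 0, 1 scale per gene) by hour after the return to yeast (horizontal axes) of the 10 glutathione transferase genes that rose; each point is 1 array and open circles are the 5 arrays with male transcripts. GstE9 goes from 158.8 to 312.8 between hours 1 and 12, GstD1 is lowest at hour 1 (1506), and 9 of the 10 genes dip at hour 10.

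Among the 3 Omega genes, whose enzymes use a cysteine and can reduce thiols and dehydroascorbate, 2 rose and 1 did not pass. GstO1 ranged from 80.4 at hour 1 through a median of 96.8 to 126.3 at hour 12 and rose by 0.58 ± 0.13 (limma adjusted p = 0.01), and it exceeded the brightest control without a fly target on 3 of 12 arrays. GstO2 lay between 254.6 and 274.4 in hours 1 to 4 and between 277.9 and 351.9 in hours 9 to 12, without overlap, and rose by 0.39 ± 0.09 (limma adjusted p = 0.0114). Another probe set for GstO2, between 80.3 and 98.9, had a change of 0.01 ± 0.09 (limma adjusted p = 0.979), so the rise of GstO2 rests on the brighter of them. A further probe set, between 6.3 and 15.1, was under the floor on all arrays. With the mean of all its probe sets, which counts that unmeasured probe set at the floor, the change of GstO2 was 0.13 (limma adjusted p = 0.147). GstO3 had a fitted change of 0.02 ± 0.07 (limma adjusted p = 0.94). The fourth gene of this class, sepia (se), is not named as a Gst and so is no member. It makes an eye pigment precursor, and it went the other way, from 98.1 at hour 1 to 59.3 at hour 12, near the floor (-0.55 ± 0.15, limma adjusted p = 0.024). The call of se was lost without hour 1, 2, 11 or 12, at adjusted p from 0.0562 to 0.0971 and changes from -0.57 to -0.49.

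Of the 3 Theta genes 1 rose. GstT4 began at 144.6, was lowest at hour 3, with 96.0, ended at 199.8 and rose by 0.68 ± 0.21 (limma adjusted p = 0.0433). It lost its call when any hour other than 1 or 10 was left out, at adjusted p from 0.0516 to 0.179 and changes from 0.56 to 0.69. GstT2, at 0.22 ± 0.09 (limma adjusted p = 0.143), and GstT3, at 0.04 ± 0.09 (limma adjusted p = 0.868), did not pass, the latter being the brightest of the class. The single Sigma gene, GstS1, an enzyme abundant in flight muscle, ranged from 182.6 at hour 4 to 273.7 at hour 1 around a median of 238.9, with a fitted change of 0.01 ± 0.14 (limma adjusted p = 0.984). The Zeta enzymes isomerise maleylacetoacetate in tyrosine breakdown, and neither of their genes passed: GstZ1 had 0.12 ± 0.09 (limma adjusted p = 0.436) and GstZ2 -0.06 ± 0.11 (limma adjusted p = 0.823).

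Some rising genes lay side by side, as GstD10, GstD9 and GstD1, GstE5 and GstE6, or GstO2 and GstO1, and others stood next to genes that did not pass. The differences between neighbours were not tested. Names and gene order come from the RefSeq table of Release 6 plus ISO1 MT and no coordinates are given, since the build behind the array annotation is not stated. On chromosome arm 2R, 10 Epsilon genes follow each other in the order GstE10, GstE1, GstE2, GstE3, GstE4, GstE5, GstE6, GstE7, GstE8 and GstE9. The 3 that rose are GstE5 and GstE6, side by side, and GstE9 at the end, while GstE7 and GstE8 between them had fitted changes of 0.03 ± 0.14 and 0.13 ± 0.08 and did not pass. GstE7 read between 105.9 and 160.6, with its highest array at hour 3. On 3R, 10 Delta genes follow each other from GstD10 through GstD9, GstD1, GstD2 and GstD3 to GstD8. The 4 that rose lie at the GstD10 end, interrupted by GstD2, and of the 5 genes from GstD4 to GstD8 GstD5, GstD6 and GstD8 were tested and did not pass. On 3L, GstO3, se, GstO2 and GstO1 are neighbours, and se, which fell, stands beside GstO2, which rose. Whether probe sets of such similar genes also bind a neighbour's transcript was not tested.

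**Figure D4:**
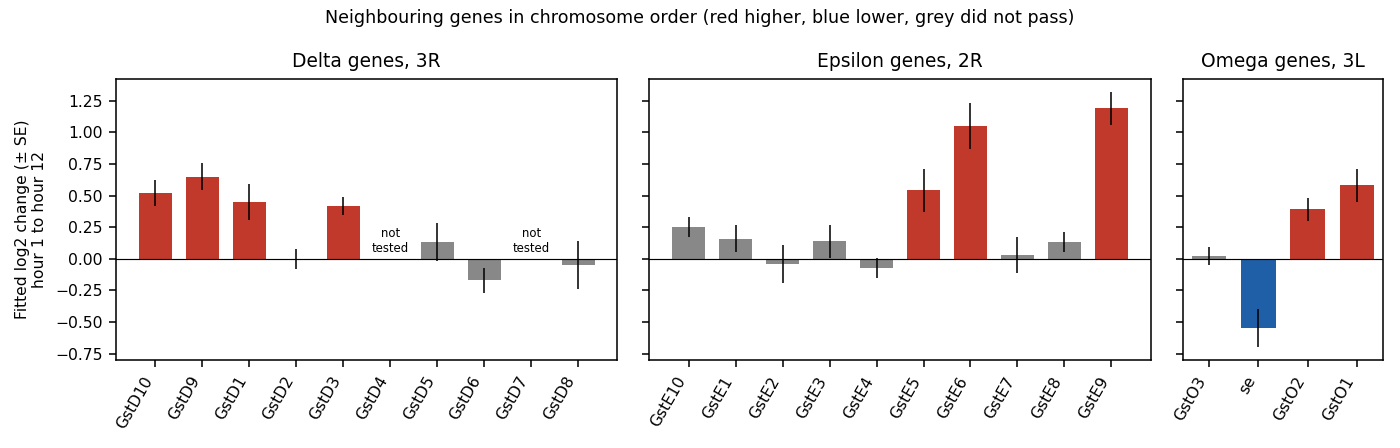
Fitted log2 change from hour 1 to hour 12 (vertical axis, bars ± SE, 12 arrays) of neighbouring glutathione transferase genes in chromosome order: 10 Delta genes on 3R, 10 Epsilon genes on 2R and 4 Omega genes on 3L. GstD10, GstD9 and GstD1 stand side by side at 0.52, 0.65 and 0.45, and GstE7 and GstE8, at 0.03 and 0.13, lie between GstE6 at 1.05 and GstE9 at 1.19.

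The hours at which these rises took place were compared in windows of 4 hours. Against hours 1 to 4, hours 9 to 12 differed by limma for 8 of the 52 tested members, 15.4%, where 8.92% of all tested genes did. GstE9 was higher by 0.86 ± 0.13 (limma adjusted p = 0.00358), GstE6 by 0.74 ± 0.15 (0.00949), GstD9 by 0.46 ± 0.10 (0.0156), GstD10 by 0.39 ± 0.08 (0.0114) and GstD3 by 0.29 ± 0.07 (0.0217). GstO2 and Ugt316A1 passed narrowly (limma adjusted p = 0.0483 and 0.0489), and these calls were lost when, respectively, 9 or 8 of the 12 hours were left out singly. Without hour 11 the window call of GstD9 was lost (limma adjusted p = 0.0515), as was that of GstD3 without hour 1, 2, 11 or 12 (limma adjusted p from 0.0612 to 0.0735). Without the 5 arrays with male transcripts the window calls of GstD10 and GstD3 were lost, at 0.29 (limma adjusted p = 0.0887) and 0.34 (0.0629). The same setting gained GstO1 as higher, at 0.62 (limma adjusted p = 0.00752), and GstD8 as lower, at -0.32 (0.0475). Ugt35B1 was lower by the contrast, at -0.45 ± 0.09 (limma adjusted p = 0.00949), but with the mean of its probe sets the value was -0.19 (limma adjusted p = 0.14). With the actin measure in the model, 0 members passed this window.

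Between hours 1 to 4 and hours 5 to 8 only GstE6 of the 52 members passed, at 0.65 ± 0.15 (limma adjusted p = 0.0392), where 2.22% of all tested genes did. This call was lost without hour 1, 2, 4, 6, 7, 8 or 9, at adjusted p from 0.0504 to 0.14 and changes from 0.51 to 0.69. GstE9 just missed it at 0.54 ± 0.13 (limma adjusted p = 0.0502), passing without hour 5, 10 or 11 (limma adjusted p from 0.0259 to 0.0464). A term for curvature over hours passed for 0 of 52 members by limma, with 3 of 32 glutathione transferases (9.38%) and 0 of 20 UDP-glycosyltransferases at an unadjusted p under 0.05, where 5.96% of all tested genes were. Among all genes 0.0325% passed that term. All 4 arrays of hours 9 to 12 exceeded all 4 of hours 1 to 4 for 9 of 32 glutathione transferases and 1 of 20 UDP-glycosyltransferases, Ugt37A2, where 8.67% of all tested genes did so. The reverse held for Ugt35B1 alone among the members, and for 4.11% of all tested genes. Both counts use the intensities without the floor. Ugt37A2 was under the floor in hours 1 to 4, at no more than 52.8, and also at hour 10, at 54.7, so its separation is not a measured one. The 9 glutathione transferases whose late arrays all exceeded the early ones were GstD3, GstD9, GstD10, GstE6, GstE8, GstE9, GstE11, GstO2 and GstT2.

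The 10 rising glutathione transferases were set beside all genes that rose. Their highest array was hour 11 or 12 for 8 of 10, as for 75.0% of the 883 genes that rose, against 20.3% of all tested genes. Genes picked for a rise over hours tend to be highest late, so this feature follows from how they were picked. At hour 10, 9 of the 10 read lower than at both hour 9 and hour 11, the exception being GstD1, and 76.6% of all rising genes did so too, against 38.8% of all tested genes. On the mean of log2 values, 9 of the 10 were dimmer on the 5 arrays with male transcripts, GstD1 being the exception. Of the 883 rising genes 57 were brighter there, and of all 9224 tested genes 4781. Hours 11 and 12 are not among the 5 arrays, so genes picked for a rise over hours tend to be dimmer on them. The differences between these arrays and the others were -0.34 for GstE9 and 0.12 for GstD1, with overlapping arrays. With the 5 arrays left out, 8 of the 10 kept their calls, GstE9 at 1.11 and GstE6 at 1.35, while GstE5 (limma adjusted p = 0.102) and GstT4 (0.115) lost theirs. With that actin measure added to the model, GstE9, GstD9 and GstD3 passed, at changes of 1.26, 0.88 and 0.55, among 39 genes that rose in that fit. The other 7 rising glutathione transferases lost their calls there (limma adjusted p from 0.148 to 0.769), as did the 3 UDP-glycosyltransferases (0.0513 to 0.768).

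Of the UDP-glycosyltransferases, Ugt35B1 had the clearest change, on 1 of its 2 probe sets. That gene, reported from the antenna among other tissues, read 248.9, 265.6, 293.1 and 241.3 in hours 1 to 4, 234.2, 239.1, 202.8 and 232.6 in hours 5 to 8, and 224.0, 186.0, 186.2 and 172.3 in hours 9 to 12. All arrays from hour 5 on were below all 4 earlier ones. Ugt35B1 fell by 0.61 ± 0.10 on the log2 scale (limma adjusted p = 0.00206), a call kept whichever hour was left out. The other probe set, between 154.3 and 196.9, had a change of 0.08 ± 0.09 (limma adjusted p = 0.691), and with the mean of both the change was -0.27 (limma adjusted p = 0.0577). Among its neighbours on 3R, Ugt35E1, Ugt35E2, Ugt35A1, Ugt304A1 and Ugt303A1 were under the floor on all arrays. The other tested gene of this number, Ugt35C1, known as Ugt86Dd and linked to nicotine resistance, read between 44.0 and 86.7, with a fitted change of -0.20 ± 0.15 (limma adjusted p = 0.484).

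The UDP-glycosyltransferases that rose were dim. Ugt316A1 read 77.8, 68.9, 72.6 and 60.8 in hours 1 to 4 and 81.5, 77.8, 98.5 and 110.8 in hours 9 to 12, so that hour 10 met hour 1, and it rose by 0.53 ± 0.14 (limma adjusted p = 0.0194). Without hour 2, 11 or 12 the call of Ugt316A1 was lost (limma adjusted p from 0.0517 to 0.101, changes from 0.43 to 0.52). Ugt37A3 was under the floor in hours 1 to 3 and read between 58.1 and 77.9 in hours 4 to 11 and 104.2 at hour 12, with a fitted change of 0.51 ± 0.16 (limma adjusted p = 0.0433). Without hour 12 it had a change of 0.27 (limma adjusted p = 0.223), and its call was also lost without hour 1, 2, 3, 4, 5, 7, 8 or 9, at adjusted p from 0.0501. Its neighbour on 3R, Ugt37A2, read 129.3 at hour 12 and at most 79.0 before, and did not pass at 0.66 ± 0.22 (limma adjusted p = 0.0646). Without hour 12 Ugt37A2 had a change of 0.29, and without hour 10 it passed, at 0.80 (limma adjusted p = 0.0163), as it did with the floor at the 10th percentile, at 0.96 (limma adjusted p = 0.0315). Both neighbours thus had their highest array at hour 12, where the brightest control without a fly target read 135.2, above either of them.

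**Figure D5:**
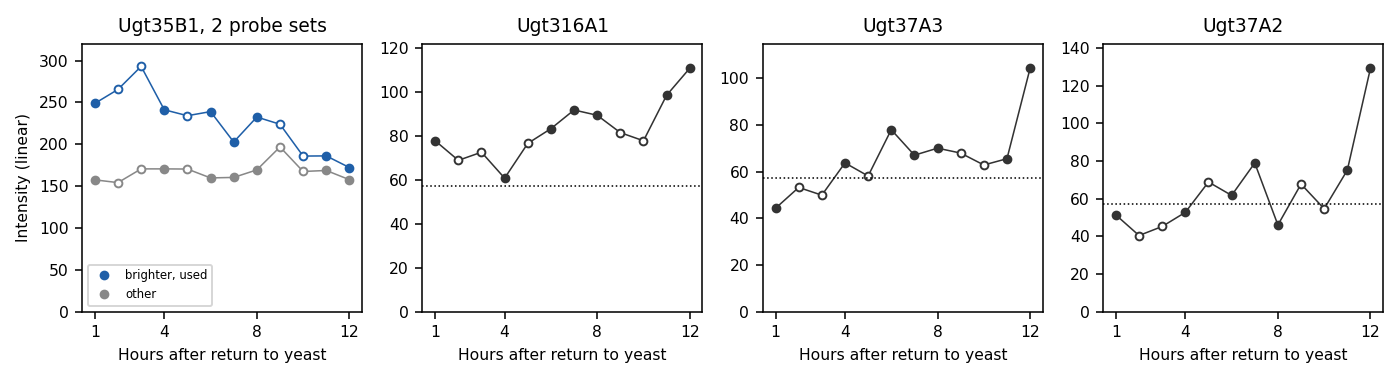
Intensity on a linear scale (vertical axes, from 0) by hour after the return to yeast (horizontal axes) of 4 UDP-glycosyltransferase genes; each point is 1 array, open circles are the 5 arrays with male transcripts and the dotted line is the floor of 57.2. The probe set used for Ugt35B1 (blue) goes from 248.9 to 172.3 while the other (grey) stays between 154.3 and 196.9, and Ugt37A2 and Ugt37A3 are highest at hour 12.

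The other 17 tested UDP-glycosyltransferases, which include Ugt37A2 and Ugt35C1, did not pass. Ugt36D1, between 232.2 and 294.1, had a fitted change of -0.21 ± 0.09 (limma adjusted p = 0.149). Ugt37A1, between 260.0 and 384.0, had 0.02 ± 0.13 (limma adjusted p = 0.95), and Ugt317A1, between 203.5 and 244.5, had 0.10 ± 0.08 (limma adjusted p = 0.515). Ugt49B1, between 77.1 and 118.9, had 0.39 ± 0.14 (limma adjusted p = 0.0735) and passed without hour 1 or 10, at 0.52 and 0.45 (limma adjusted p = 0.0379 and 0.038). Its neighbour Ugt49C1 had 0.14 ± 0.09 and Ugt49B2, on another chromosome arm, -0.08 ± 0.09. Ugt302C1 read between 70.6 and 107.8, above the brightest control without a fly target on 1 of 12 arrays. Its mean was 78.2 on the 5 arrays with male transcripts and 94.9 on the other 7, a difference that was not tested. Over hours its fitted change was 0.03 ± 0.15. By number, the tested genes of Ugt37 were 6, all with fitted changes above 0, from 0.01 to 0.66, of which 1 rose. Ugt301D1, Ugt303B1, Ugt305A1 and Ugt307A1 had fitted changes of 0.08, 0.23, -0.12 and -0.11.

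Genes that supply or resemble these enzymes were mixed. The 10 of them that passed, Txl, Trx2, Galt, Prx3, Prx6a, alpha-Est5, Mgstl, se, eEF1gamma and maf-S, all lost their calls with the actin measure in the model, at limma adjusted p from 0.0701 to 0.699. The counts of each list below come from the fit without that measure, in which 9.57% of all tested genes rose and 4.87% fell. Among 12 tested genes of glutathione synthesis and thiol reduction, 2 rose and 0 fell, with a median of 0.09. Txl, a thioredoxin-like protein, rose by 0.69 ± 0.12 (limma adjusted p = 0.00198), and the thioredoxin gene Trx2 by 0.52 ± 0.16 (0.0394), although the latter lost its call without hour 1, 2, 3, 4, 5, 7, 9 or 11 (limma adjusted p from 0.0511 to 0.163, changes from 0.42 to 0.53). Grx1, at 0.41 ± 0.17 (limma adjusted p = 0.153), did not pass. Of 10 genes of UDP-sugar supply and transport 1 rose (10.0%), a share near that of all genes. It was Galt, a uridylyltransferase of galactose use, by 1.02 ± 0.15 (limma adjusted p = 0.000867), from 150.1 at hour 1 to 303.8 at hour 12. All 10 had fitted changes above 0, where 5129 of all 9224 genes did. The median of the 10 was 0.15, with the transporter gene Efr at 0.26 ± 0.08 (limma adjusted p = 0.0592) and nst at 0.34 ± 0.12 (0.0843). Of 7 superoxide, catalase and peroxiredoxin genes 2 rose, with a median of 0.10, the mitochondrial peroxiredoxin Prx3 by 0.52 ± 0.08 (limma adjusted p = 0.000881) and the dim Prx6a by 0.36 ± 0.08 (0.0101, and 0.0547 without hour 12), while Prx1 had 0.18 ± 0.08 (0.205). Of 14 epoxide hydrolase, esterase and export pump genes 1 rose (7.1%), again a share near that of all genes. It was alpha-Est5, by 0.60 ± 0.11 (limma adjusted p = 0.00225), while alpha-Est10 had 0.24 ± 0.09 (0.0978) and rdog 0.46 ± 0.18 (0.113).

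Of 6 genes with a glutathione transferase fold or activity outside the naming rule, 2 rose and 1 fell, where 9.57% of all tested genes rose and 4.87% fell. The gene that fell was se, which is described above with the Omega genes. Mgstl, the microsomal glutathione transferase, went from 599.3 at hour 1 to 1214.4 at hour 12 and rose by 1.04 ± 0.22 (limma adjusted p = 0.00606), a change of 0.35 with the actin covariate (limma adjusted p = 0.699). The translation factor gene eEF1gamma passed at 0.21 ± 0.07 (limma adjusted p = 0.0495) and lost its call whichever hour was left out (limma adjusted p from 0.0567 to 0.141). Among 5 tested regulators 0 rose and 1 fell, where 4.87% of all tested genes fell. It was maf-S, the partner of CncC, which stood at 320.9 at hour 1 and 160.6 at hour 12, with a fitted change of -0.76 ± 0.15 (limma adjusted p = 0.00439). Without the 5 arrays with male transcripts maf-S had -0.73 (limma adjusted p = 0.0515). Keap1, at -0.30 ± 0.10 (limma adjusted p = 0.0553), and tgo, at 0.20 ± 0.07 (0.083), did not pass.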

How the data were processed

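RNA of whole flies was measured on 12 Affymetrix arrays, 1 per hour. Per the labels, the authors used Trizol for extraction, then dChip for normalization, of a version the labels leave out. What they deposited are linear intensities. The table holds 13966 fly probe sets, of which the platform annotation gives 12443 a single symbol, 327 several and 1196 none. Precision is limited by the number of arrays.

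Intensities below 57.2, the 20th percentile, were raised to it before taking log2. Fly probe sets above it on at least 3 arrays were tested (11586), and members were counted and their adjusted p taken from a fit with the brightest probe set of each gene (9224 genes). The fit over all probe sets called the same 13 members. R 4.3.3 and limma 3.58.1 fitted a slope on hour, a curvature term and 3 windows of 4 hours, with Benjamini-Hochberg adjustment. The fits were tested on simulated data.

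The members, gene lists and tests were chosen with earlier results of these data known. Named are the members that passed, in each class the one with the smallest p and the one with the highest mean, the members next to the threshold, GstD1, GstS1 and GstE1, and the leading genes of each pathway list, marker lists being given as counts; any further gene was chosen after its values were seen. Alternatives were other floors, filters and normalizations, another variance model, the mean over probe sets, each hour or the 5 arrays with male transcripts left out, and 2 covariates. No sequences were used here.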

Additional observations from a re-analysis of the deposited data

How the results depend on the processing

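No sign of a call reversed in any of 23 alternatives. Of the trend results of the 52 tested members under them, 1098 kept their side of the threshold, 66 lost the call and 10 gained it. The 66 losses could fall only on the 13 members called in the main setting. GstE5 lost its call in 16 of 21 alternatives, GstT4 in 14 of 23, Ugt37A3 in 14 of 21 and GstD1 in 11 of 23. GstD3, GstD9 and GstE9 lost theirs in 0. With single hours left out, rising glutathione transferases numbered 7 to 10 and falling ones 0, rising UDP-glycosyltransferases 0 to 4 and falling ones 1, and rising genes in all 529 to 1207 and falling ones 253 to 495. Window calls ranged from 0 to 4 members and 0 to 472 genes for hours 5 to 8, and from 4 to 13 members and 362 to 1271 genes for hours 9 to 12, and the curvature term from 0 to 22 genes, with 0 members throughout. Leaving out hour 10 gave the highest counts of rising genes, of late-window genes and of rising UDP-glycosyltransferases, the latter at 0 without hour 2 or 12. The lowest count of rising genes was without hour 2, of falling genes without hour 1 and of late-window genes without hour 11, and without hour 1, 6, 7 or 8 the window of hours 5 to 8 called 0 genes.

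With the actin measure as a covariate, 3 glutathione transferases rose, 0 UDP-glycosyltransferases rose or fell, 39 genes rose and 107 fell, and the windows and curvature called 0 members and 0 genes. That covariate follows hour, so how much of a change is kept cannot be told. Rising UDP-glycosyltransferases numbered 3 with the floor at the 10th percentile, where Ugt37A2 passed, 0 with the floor at the 40th percentile and 1 with no filter, the filter on all 12 arrays, quantile normalization, median scaling or without the 5 arrays with male transcripts. Falling ones numbered 2 with quantile normalization, where Ugt36D1 passed, and 0 with the mean over probe sets. Members called for hours 5 to 8 numbered 2 with the floor at the 40th percentile, the filter on all 12 arrays or the male covariate, 4 without the 5 arrays, and 0 with no filter or quantile normalization. Genes called in that window numbered 205 in the main setting, 0 with no filter, 486 without the 5 arrays and 372 with the male covariate. For hours 9 to 12, 5 members passed with the mean over probe sets, and 1271 genes with the male covariate against 823. Curvature called 3 genes, 7 with the floor at the 40th percentile or quantile normalization, 5 with median scaling or the other variance model, 1 with no filter, and 0 with the mean over probe sets or without the 5 arrays. The cause of these differences was not tested.

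The rising UDP-glycosyltransferases, and GstE5 among the rising glutathione transferases, read at or below the brightest controls on all arrays, and 15 members gave no test at all. No paired analysis was possible because the arrays form a single group with 1 array per hour.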
